A study of Mus musculus with 14 samples.

Results

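Cells of the subependymal zone (SEZ) that were sorted for GFP were compared with cells of the same zone that were sorted for CD24, on 4 of the 14 arrays of the study. All cells came from hGFAP eGFP mice at 8 weeks of age. In this line a promoter of the human GFAP gene switches on enhanced green fluorescent protein (GFP), mainly in astrocytes and in stem cells with astrocytic properties. SEZ_GFP (n = 2 arrays) holds SEZ cells selected by fluorescence for GFP, which the labels call neural stem, and SEZ_CD24 (n = 2 arrays) holds SEZ cells selected with an antibody to the surface protein CD24, which the labels call ependymal. The arrays were chosen by their titles. The other 3 groups, cells of the SEZ positive for GFP and prominin (SEZ_GFPprom, n = 4), cells of the SEZ positive for prominin (SEZ_Prom, n = 2) and diencephalic cells positive for GFP (DIEC_GFP, n = 4), served to estimate the spread. Arrays of a group are labelled biological replicates, with no word on separate animals or pools, so a p-value here measures only the spread among these arrays, which may be in part technical.

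The SEZ is a thin layer beside the lateral ventricle where new neurons are made throughout life. Slowly dividing stem cells with the traits of astrocytes give rise to rapidly dividing progenitors, and these to neuroblasts that migrate to the olfactory bulb. A single sheet of multiciliated ependymal cells separates the layer from the ventricle. GFP in these mice follows the GFAP promoter and persists in the progeny of a cell that made it, while CD24 is a surface glycoprotein found on ependymal cells, on neuroblasts and on many blood cells. The choroid plexus, the secretory epithelium that makes cerebrospinal fluid, lies in the same ventricle, and microglia, the resident macrophages of the brain, lie among the cells of the layer.

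Values are intensities of the brightest probe set of each gene, a unit in which one gene cannot be set against another. Differences are SEZ_GFP minus SEZ_CD24 on the log2 scale. A gene passed the test where the adjusted p of limma, over 18193 genes, was under 0.05. Across genes, the SEZ_GFP arrays correlated at r = 0.979 and the SEZ_CD24 arrays at r = 0.952. SEZ_GFP replicate 2 and SEZ_CD24 replicate 2 also correlated at r = 0.952. The SEZ_GFP arrays differed by over 2-fold at 907 genes and the SEZ_CD24 arrays at 2634. The control transcripts are probed at both ends, and a high ratio of 3' to 5' signal marks degraded or short RNA. On the log2 scale this ratio was 4.63 and 4.82 in SEZ_GFP and 4.94 and 5.35 in SEZ_CD24, without overlap. In a fit with the ratio as a covariate 35 genes passed the test (15 higher and 20 lower in SEZ_GFP). Xist, the RNA that silences an X chromosome in females, had 38 and 83 in SEZ_GFP, against 3294 and 3522 in SEZ_CD24 (adjusted p = 0.111). The Y-linked Eif2s3y had 206 and 325 in SEZ_GFP, against 83 and 64 in SEZ_CD24 (adjusted p = 0.203). The sex of the animals, which the labels do not give, and the sort cannot be told apart in these arrays.

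Among the genes higher in SEZ_GFP were 3 of 29 astrocyte markers, 4 of 30 genes of stem cells and radial glia and 2 of 11 genes of oligodendrocyte progenitors, with Id3, Thbs4 and Cspg4 among them. Among the genes lower in SEZ_GFP were 6 of 17 microglia markers, 4 of 11 choroid plexus genes and 2 of 9 erythroid genes, with Csf1r, Kl and Alas2 among them. In all, 149 genes (0.819% of those tested) passed the test, 66 of them (0.363%) higher in SEZ_GFP and 83 (0.456%) lower. The median change of the genes that passed was 3.97-fold higher and 6.41-fold lower. The genes lower in SEZ_GFP reached larger changes, with 36 of 83 at 8-fold or more, against 6 of 66 of the genes higher in SEZ_GFP. All 149 differed by at least 2-fold and had groups that did not overlap. Of all genes, 22.3% had both SEZ_GFP arrays above both SEZ_CD24 arrays and 17.9% had both below. The median difference over all genes was 0.02. In bulk samples such as these, fewer cells of a type and less RNA per cell cannot be told apart.

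**Figure D1:**
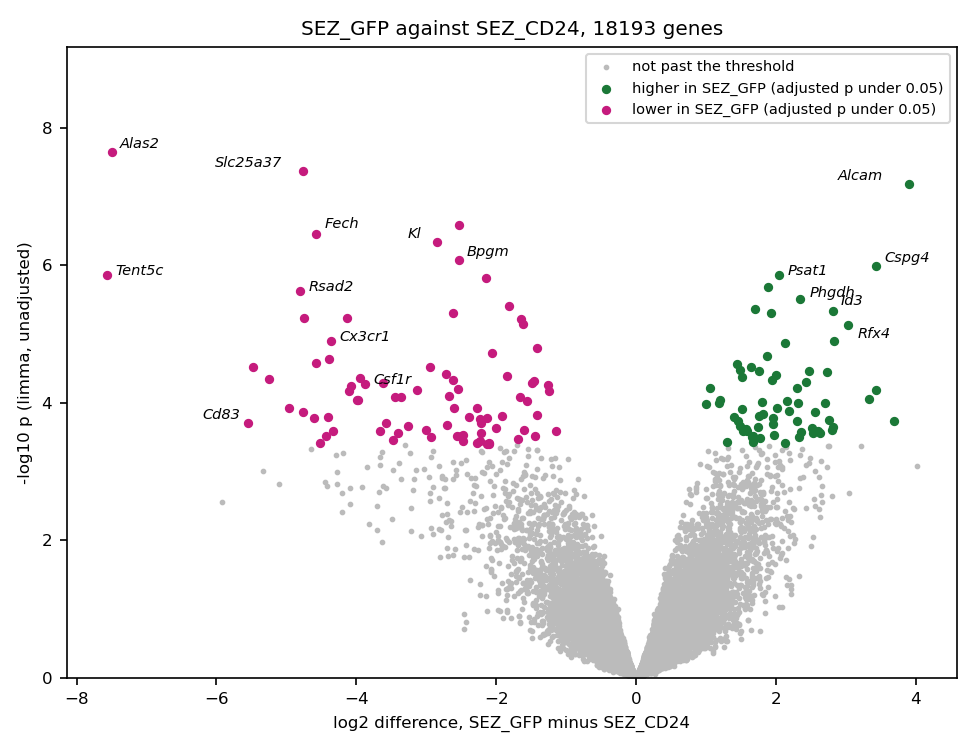
Each of 18193 genes is a point, with the log2 difference of SEZ_GFP minus SEZ_CD24 on the horizontal axis and the unadjusted -log10 p of limma on the vertical axis; green points are the 66 genes higher in SEZ_GFP and magenta points the 83 genes lower in SEZ_GFP at an adjusted p under 0.05. The magenta points reach -7.56 (Tent5c), whereas the green points reach 3.90 (Alcam).

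For the larger part of the genes that passed, the SEZ_CD24 arrays lay outside the range of the other 12 arrays. For 47 of the 83 genes lower in SEZ_GFP, both SEZ_CD24 arrays were above all the other 12 arrays. For 47 of the 66 genes higher in SEZ_GFP, both SEZ_CD24 arrays were below all the others. The SEZ_GFP arrays were below all others for 24 of the 83 genes and above all others for 6 of the 66. These counts describe genes that were selected in part by the same SEZ_CD24 values. The shares over all genes are not given here, so no conclusion is drawn from the counts. The SEZ_CD24 arrays were also unequal, since 70 of the 83 genes were higher in replicate 1 than in replicate 2. Leaving out 1 of the 4 arrays moved the count of genes that passed by over 1.5 times in 3 cases. It was 16 without SEZ_GFP replicate 1, 16 without SEZ_GFP replicate 2 and 356 without SEZ_CD24 replicate 2. It was 112 without SEZ_CD24 replicate 1, with 28 lower in SEZ_GFP, and 96 without SEZ_GFPprom replicate 1. Without DIEC_GFP replicate 4, 102 genes were higher in SEZ_GFP. A group left with 1 array was then assumed to vary like the others. With all probe sets of each gene averaged, some log2 differences were smaller by over 1.5 times and still passed. They include Alcam (1.86), Rfx4 (1.69), Prrx1 (0.91), Fech (-2.93), Cx3cr1 (-2.58) and Kl (-1.37). Tent5c (-5.73) was smaller by less and also passed. A limma fit of these 4 arrays alone passed 0 genes, with 2388 at an unadjusted p under 0.05, against 2269 in the fit of all groups.

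The transcripts of the sorting proteins did not pass the test. Gfap, the intermediate filament of astrocytes whose human promoter drives the GFP, had 193 and 218 in SEZ_GFP, against 36 and 34 in SEZ_CD24 (5.86-fold, adjusted p = 0.106). The Gfap groups did not overlap by this probe set. Its standard deviation on the log2 scale was 0.12 in SEZ_GFP and 0.06 in SEZ_CD24, against 1.11 in SEZ_GFPprom, which shares the estimate of the spread. Without SEZ_GFPprom replicate 3 the difference was 2.55 (adjusted p = 0.0337 in limma), so the outcome for Gfap depended on that array. The other Gfap probe sets differed by 0.47 and 0.58. Cd24a, which encodes the mouse CD24 antigen, had 1884 and 1565 in SEZ_GFP, against 2160 and 3740 in SEZ_CD24 (difference -0.73, adjusted p = 0.598). Its other probe sets differed by -1.75 and 0.90, so the direction of Cd24a depended on the probe set. Prom1, the gene of prominin, overlapped between the groups, with 243 and 347 in SEZ_GFP and 85 and 380 in SEZ_CD24 (adjusted p = 0.702).

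The label of the CD24 sort was checked against markers of ependymal cells, and the data went against it. Of 24 ependymal genes measured, 0 passed the test in this limma fit (11 at an unadjusted p under 0.05), and 22 had a difference above 0, towards SEZ_GFP, against 52% of all genes. The median difference of the list was 0.86. Foxj1, the master regulator of motile cilia, overlapped at 64 and 62 in SEZ_GFP and 66 and 48 in SEZ_CD24, whereas SEZ_GFPprom arrays lay between 575 and 1086. The ciliary gene Ccdc153 had 305 and 173 in SEZ_GFP, against 94 and 45 in SEZ_CD24 (adjusted p = 0.116), and 4501 to 8308 in SEZ_GFPprom. Tmem212, another ependymal marker, had 147 and 67 in SEZ_GFP, against 60 and 34 in SEZ_CD24 (adjusted p = 0.334), and 1556 to 2915 in SEZ_GFPprom. Both sorts thus stood far below SEZ_GFPprom in these genes, and the CD24 sort is called here by its gate. Of the genes of motile cilia and their regulators, Rfx4, a transcription factor of the RFX family, and Tppp3, a tubulin-binding protein of ependymal and other cells, passed, both higher in SEZ_GFP. Rfx4 was 1 of 19 regulators measured. Tppp3 was 1 of 45 genes measured in the list named for radial spokes and the central pair, and no other member passed. None of 35 axonemal dynein genes (5 at an unadjusted p under 0.05) and none of 40 transport and BBSome genes (4 at an unadjusted p under 0.05) passed in this limma fit.

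**Figure D2:**
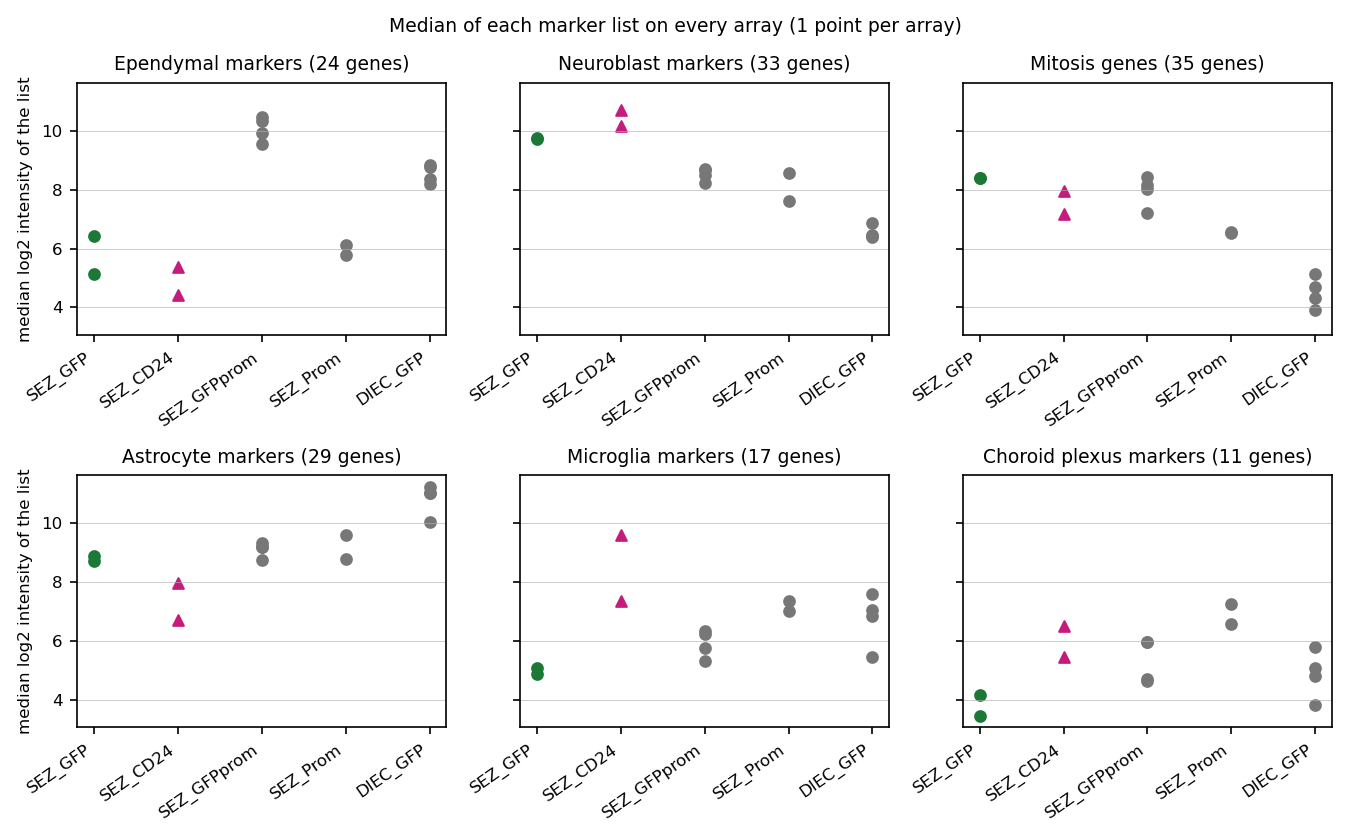
Each point is the median log2 intensity of a marker list on 1 array, with the groups along the horizontal axis; green circles are SEZ_GFP, magenta triangles SEZ_CD24 and grey circles the other groups. Ependymal markers had medians of 6.44 and 5.13 in SEZ_GFP and 5.39 and 4.43 in SEZ_CD24, below all SEZ_GFPprom arrays, while microglia markers had medians of 4.86 and 5.09 in SEZ_GFP and 9.59 and 7.38 in SEZ_CD24.

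Neuroblast genes were bright in both sorts. Of 33 measured, 0 passed the test in limma (3 at an unadjusted p under 0.05), with a median difference of -0.37, which was 0.01 without SEZ_CD24 replicate 2. Dcx, a microtubule-binding protein of migrating neurons, had 3340 and 3463 in SEZ_GFP, against 2872 and 5645 in SEZ_CD24 (adjusted p = 0.934). The values of Dcx overlapped, and all other groups lay lower, with 43 to 102 in DIEC_GFP and 723 to 1307 in SEZ_GFPprom. The tubulin Tubb3 had 568 and 767 in SEZ_GFP, against 423 and 1669 in SEZ_CD24 (adjusted p = 0.892). The transcription factor Sox11 had 3764 and 3978 in SEZ_GFP, against 3843 and 4321 in SEZ_CD24 (adjusted p = 0.982). Neither separated the groups. Among 26 genes of the neuronal cytoskeleton, the kinesin Kif21b alone passed, with 263 and 244 in SEZ_GFP, against 628 and 802 in SEZ_CD24 (2.80-fold lower, adjusted p = 0.0181). Of 14 markers of striatal projection neurons, a neighbouring cell type, 0 passed in limma (3 at an unadjusted p under 0.05). All 14 had a difference below 0, with a median of -0.89. The list's median log2 intensity was 7.33 and 6.88 in SEZ_GFP and 8.43 and 7.20 in SEZ_CD24. Penk, a precursor of opioid peptides, had 120 and 108 in SEZ_GFP, against 424 and 114 in SEZ_CD24 (adjusted p = 0.664), and Drd1, a dopamine receptor gene, had 22 and 23 in SEZ_GFP, against 71 and 27 in SEZ_CD24 (adjusted p = 0.338).

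Of 35 mitosis genes measured, 2 passed, both higher in SEZ_GFP, and 25 (against 22.3% of all genes) had SEZ_GFP arrays above both SEZ_CD24 arrays. The median difference was 0.93. Spc24, a kinetochore subunit, had 136 and 97 in SEZ_GFP, against 35 and 45 in SEZ_CD24 (2.89-fold higher, adjusted p = 0.0392). Hmgb2, a chromatin protein abundant in cycling cells, had 704 and 865 in SEZ_GFP, against 327 and 236 in SEZ_CD24 (2.81-fold higher, adjusted p = 0.0368), but did not pass when probe sets of shared sequence were left out (adjusted p = 0.561). The proliferation antigen Mki67 had 2000 and 2918 in SEZ_GFP, against 1606 and 1796 in SEZ_CD24 (adjusted p = 0.88). Its groups did not overlap, yet the gap was small against the spread of Mki67 in the study. None of 30 DNA replication genes passed in limma (6 at an unadjusted p under 0.05), with a median of 0.72. Egfr, the growth factor receptor of activated stem cells and progenitors, had 549 and 489 in SEZ_GFP, against 132 and 243 in SEZ_CD24 (adjusted p = 0.16). Dlx2, a homeobox gene of the interneuron lineage, had 472 and 417 in SEZ_GFP, against 628 and 1288 in SEZ_CD24 (adjusted p = 0.496).

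The largest difference towards SEZ_GFP was that of Alcam, a cell adhesion molecule of the immunoglobulin superfamily. It had 457 and 661 in SEZ_GFP, against 34 and 40 in SEZ_CD24 (log2 difference 3.90, SE 0.32, 14.9-fold, adjusted p = 0.000395). All 5 probe sets of Alcam pointed the same way, and the other groups lay between 276 and 717, so the SEZ_CD24 arrays stood apart. Adgra1, an adhesion G protein-coupled receptor, had 350 and 230 in SEZ_GFP, against 37 and 13 in SEZ_CD24 (12.9-fold higher, adjusted p = 0.0339). A fit that left out probe sets of shared sequence took another probe set for Adgra1 and gave a difference of 0.68 (adjusted p = 0.615). Slc15a2, a peptide transporter of astrocytes, had 1558 and 1137 in SEZ_GFP, against 305 and 57 in SEZ_CD24 (10.1-fold higher, adjusted p = 0.0239). That call was lost in the same fit, where Slc15a2 differed by 0.02 (adjusted p = 1). Rfx4 had 241 and 479 in SEZ_GFP, against 28 and 62 in SEZ_CD24 (8.15-fold higher, adjusted p = 0.00568). By the brightest probe set the groups were separate in each of these genes. Polr3k, a subunit of RNA polymerase III, was 10.7-fold higher by its brightest probe set (648 and 736 in SEZ_GFP, against 48 and 86 in SEZ_CD24). When such probe sets were left out its difference was -0.29, so no direction is given for Polr3k.

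Other genes among the 12 largest differences towards SEZ_GFP were Prrx1, a homeobox gene, Urah, an enzyme of purine breakdown, and Selenbp1, a selenium-binding protein. Prrx1 had 317 and 326 in SEZ_GFP, against 42 and 49 in SEZ_CD24 (7.09-fold higher, adjusted p = 0.00897), and 3 of its 6 probe sets pointed the same way. Urah was 7.05-fold and Selenbp1 6.63-fold higher (adjusted p = 0.0376 and 0.0161). Tppp3 had 573 and 298 in SEZ_GFP, against 103 and 36 in SEZ_CD24 (6.79-fold higher, adjusted p = 0.033).

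Of 29 astrocyte markers measured, 3 passed, all higher in SEZ_GFP, and 21 (against 22.3% of all genes) had SEZ_GFP arrays above both SEZ_CD24 arrays. The median difference of the list was 1.41. Itih3, a secreted protein that binds hyaluronan, had 994 and 864 in SEZ_GFP, against 282 and 62 in SEZ_CD24 (7.01-fold higher, adjusted p = 0.0392). Gja1, the connexin of astrocyte gap junctions, had 4535 and 3978 in SEZ_GFP, against 1795 and 667 in SEZ_CD24 (3.88-fold higher, adjusted p = 0.0358). Cbs, which makes cystathionine from homocysteine, had 474 and 348 in SEZ_GFP, against 137 and 80 in SEZ_CD24 (3.88-fold higher, adjusted p = 0.0321). The remaining astrocyte markers did not pass. The water channel gene Aqp4 had 319 and 147 in SEZ_GFP, against 140 and 55 in SEZ_CD24 (adjusted p = 0.332). Slc1a2, the main glutamate transporter of astrocytes, overlapped at 6293 and 4465 in SEZ_GFP and 4624 and 1775 in SEZ_CD24 (adjusted p = 0.443). For the genes just named, SEZ_CD24 replicate 2 was the lowest of the 4 arrays, and SEZ_CD24 replicate 1 lay nearer to SEZ_GFP. Gja1 no longer passed without SEZ_GFP replicate 1 (adjusted p = 0.262) or replicate 2 (adjusted p = 0.169).

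Of 30 genes of stem cells and radial glia, 4 passed, all higher in SEZ_GFP, with a list median of 0.75 and 29 differences above 0. Thbs4, a secreted thrombospondin made in the adult SEZ, had 653 and 441 in SEZ_GFP, against 118 and 57 in SEZ_CD24 (6.54-fold higher, adjusted p = 0.0245). Thbs4 lay at 911 to 1212 in SEZ_GFPprom and at 11 to 27 in DIEC_GFP. Id3, an inhibitor of helix-loop-helix factors downstream of BMP, had 292 and 228 in SEZ_GFP, against 50 and 27 in SEZ_CD24 (7.02-fold higher, adjusted p = 0.00469). The endothelin receptor gene Ednrb had 348 and 334 in SEZ_GFP, against 67 and 56 in SEZ_CD24 (5.57-fold higher, adjusted p = 0.0161). Veph1, which encodes a protein with a pleckstrin homology domain, had 69 and 29 in SEZ_GFP, against 6 and 9 in SEZ_CD24 (4.47-fold higher with values under 10 set to 10, adjusted p = 0.0392). In all 4 genes the groups were separate. The widely used stem cell genes did not pass. Sox2 had 782 and 866 in SEZ_GFP, against 370 and 618 in SEZ_CD24 (adjusted p = 0.223), and Fabp7, a fatty acid binding protein of radial glia, had 767 and 521 in SEZ_GFP, against 368 and 174 in SEZ_CD24 (adjusted p = 0.164).

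Of 11 genes of oligodendrocyte progenitors measured, 2 passed, both higher in SEZ_GFP, with a list median of 1.41. Cspg4, the NG2 proteoglycan of progenitors and pericytes, had 349 and 286 in SEZ_GFP, against 37 and 23 in SEZ_CD24 (log2 difference 3.44, SE 0.37, 10.8-fold, adjusted p = 0.00232). SEZ_GFPprom arrays had 36 to 64 and DIEC_GFP arrays 389 to 703, so SEZ_GFP was the brightest of the SEZ sorts in Cspg4. Matn4, a matrix protein, had 138 and 300 in SEZ_GFP, against 43 and 38 in SEZ_CD24 (5.03-fold higher, adjusted p = 0.0425). Pdgfra, the growth factor receptor of these progenitors, had 595 and 670 in SEZ_GFP, against 424 and 71 in SEZ_CD24 (adjusted p = 0.228), and did not pass. Pericytes share Cspg4. Pdgfrb, the receptor of pericytes, had 364 and 405 in SEZ_GFP, against 86 and 39 in SEZ_CD24 (adjusted p = 0.0665), and of 14 mural cell genes Myl9, a myosin light chain, alone passed (2.86-fold higher with values under 10 set to 10, adjusted p = 0.0428). The median of the mural list was 0.19, with 5 of 14 differences below 0. The smooth muscle actin gene Acta2 had 31 and 32 in SEZ_GFP, against 30 and 50 in SEZ_CD24 (adjusted p = 0.886), and the pericyte gene Rgs5 had 14 and 15 in SEZ_GFP, against 23 and 25 in SEZ_CD24 (adjusted p = 0.721). The part of pericyte RNA in these differences was not tested.

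Mbp and Mobp, both myelin genes, were lower in SEZ_GFP by their brightest probe sets. Mbp, a main protein of myelin, had 1854 and 1435 in SEZ_GFP, against 5701 and 4387 in SEZ_CD24 (3.07-fold lower, adjusted p = 0.00558), and 6 of its 8 probe sets pointed the same way. Averaged over its probe sets Mbp differed by -1.10 (adjusted p = 0.103). Mobp, another myelin protein, had 116 and 52 in SEZ_GFP, against 1657 and 910 in SEZ_CD24 (15.8-fold lower, adjusted p = 0.0239), but only 2 of its 5 probe sets pointed the same way. Averaged over all its probe sets, Mobp differed by -0.58 (adjusted p = 0.654). The surface protein gene Mog overlapped, with 110 and 25 in SEZ_GFP and 98 and 10 in SEZ_CD24 (adjusted p = 0.869). Of 14 oligodendrocyte genes, Mbp and Mobp passed, while 10 differed towards SEZ_GFP, with a list median of 0.73. That median was -0.36 without SEZ_CD24 replicate 2, so the list has no settled direction.

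Of 21 genes of amino acid and folate metabolism measured, 3 passed, all higher in SEZ_GFP, with a list median of 1.08. Phgdh, which starts the synthesis of serine, had 4271 and 3664 in SEZ_GFP, against 824 and 742 in SEZ_CD24 (log2 difference 2.34, SE 0.28, 5.06-fold, adjusted p = 0.004). Psat1, the next enzyme, had 1384 and 1342 in SEZ_GFP, against 309 and 353 in SEZ_CD24 (log2 difference 2.04, SE 0.23, 4.13-fold, adjusted p = 0.0025). By these probe sets the replicates of each group lay close together in Phgdh and Psat1, and Psat1 lay between 1501 and 2490 in all other groups. The other Phgdh probe sets differed by 1.16, 1.43 and 1.82, with SEZ_CD24 arrays further apart (815 and 357, 1848 and 825, 553 and 222). The other Psat1 probe set differed by 0.96. None of these had an adjusted p under 0.05 when each probe set was tested by itself. Averaged over all their probe sets, Phgdh and Psat1 still passed in limma (adjusted p = 0.0303 and 0.0208). Psph, which completes the pathway, had 404 and 350 in SEZ_GFP, against 173 and 68 in SEZ_CD24 (adjusted p = 0.0556), just outside the threshold. Cbs was the third gene of the list to pass. The glycine decarboxylase gene Gldc had 542 and 517 in SEZ_GFP, against 398 and 157 in SEZ_CD24 (adjusted p = 0.297). Psat1 passed with each of the 14 arrays left out in turn.

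**Figure D3:**
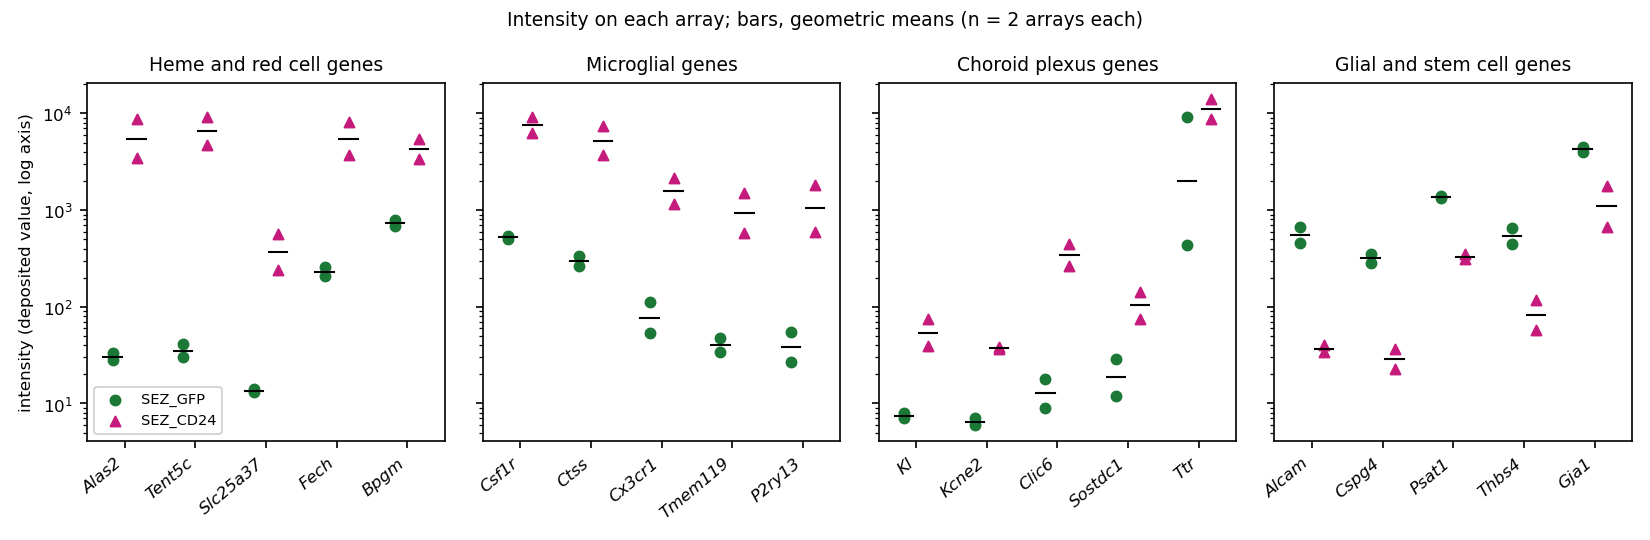
Intensity (log axis) on each array for genes of heme and red cells, microglia, the choroid plexus and glia or stem cells; green circles are the 2 SEZ_GFP arrays, magenta triangles the 2 SEZ_CD24 arrays and black bars the geometric mean of each pair. Alas2 had 28 and 33 in SEZ_GFP against 8741 and 3442 in SEZ_CD24, whereas Ttr overlapped at 9146 and 436 in SEZ_GFP and 14001 and 8698 in SEZ_CD24.

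Tent5c and Alas2, genes of red cell maturation and heme synthesis, had the largest differences of the genes named here, both lower in SEZ_GFP. Slc25a37 and Fech, genes of the same kind, were also among the 12 largest differences in this direction. Tent5c, a poly(A) polymerase active in maturing red cells and B cells of mice, had 30 and 41 in SEZ_GFP, against 9236 and 4766 in SEZ_CD24 (log2 difference -7.56, SE 0.84, 189-fold lower, adjusted p = 0.0025). Alas2, the first and rate-limiting enzyme of heme synthesis in red cell precursors, had 28 and 33 in SEZ_GFP, against 8741 and 3442 in SEZ_CD24 (log2 difference -7.50, SE 0.57, 180.0-fold lower, adjusted p = 0.000384). The other groups lay between 22 and 82 in Alas2 and between 12 and 264 in Tent5c, far under both SEZ_CD24 arrays. Slc25a37, the mitochondrial iron importer of red cell precursors, had 13 and 14 in SEZ_GFP, against 562 and 240 in SEZ_CD24 (27.2-fold lower, adjusted p = 0.000384). Fech, which inserts iron into heme, had 255 and 208 in SEZ_GFP, against 8144 and 3683 in SEZ_CD24 (23.8-fold lower, adjusted p = 0.00127). When probe sets of shared sequence were left out, the difference of Fech was -1.32 (adjusted p = 0.468). Bpgm, which makes the regulator of oxygen release by hemoglobin, had 686 and 799 in SEZ_GFP, against 5427 and 3403 in SEZ_CD24 (5.80-fold lower, adjusted p = 0.00217). In each of these genes both SEZ_CD24 arrays stood above all the other 12 arrays, with replicate 1 above replicate 2.

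Further genes of this kind that passed were Slc4a1, the anion exchanger of the red cell membrane (11.9-fold lower, adjusted p = 0.0352), and Trim10, a protein needed for terminal red cell differentiation in mouse cells (8.79-fold lower, adjusted p = 0.0196). Slc4a1 had 10 and 11 in SEZ_GFP, against 269 and 58 in SEZ_CD24, and Trim10 had 12 and 11 in SEZ_GFP, against 170 and 60 in SEZ_CD24. Ube2o, a ubiquitin ligase that clears proteins from reticulocytes, had 27 and 29 in SEZ_GFP, against 199 and 92 in SEZ_CD24 (adjusted p = 0.0268). Hemoglobin was read mainly from probe sets that the platform table gives to several adult globin genes at once, which are outside the test of genes. The table has 4 such probe sets, which were looked up after values were seen, 3 shared by alpha globin genes and 1 by beta globin genes. No test was run on them. Of the alpha globin probe sets, that with the largest difference had 1183 and 345 in SEZ_GFP, against 18925 and 18672 in SEZ_CD24 (log2 difference -4.88), and the others differed by -4.50 and -3.93. The beta globin probe set had 682 and 191 in SEZ_GFP, against 14560 and 12492 in SEZ_CD24 (log2 difference -5.22). In all 4 probe sets both SEZ_CD24 arrays were above the other 12 arrays. The single probe set of Hba-a1 alone was at background, with 10 and 9 in SEZ_GFP and 10 and 9 in SEZ_CD24. It is 1 of 11 probe sets given to 1 globin gene, and these were mixed. An Hbb-b2 probe set had 8 and 5 in SEZ_GFP, against 1583 and 105 in SEZ_CD24 (log2 difference -6.01). The other Hbb-b2 probe set differed by 0.46 and that of Hba-a2 by 0.07. Those of Hbb-y, Hbb-bh1 and Hba-x differed by -0.49 to 0.03. Klf1, a transcription factor of red cell precursors, had 32 and 29 in SEZ_GFP and 18 and 27 in SEZ_CD24 (adjusted p = 0.713). Of the 9 erythroid genes listed first, 2 passed, both lower in SEZ_GFP, and the median was 0. A longer pair of lists, chosen after values were seen, brought the count to 11 of 51, all lower in SEZ_GFP. The summed intensity of the first list, without the shared globin probe sets, was 173 and 201 in SEZ_GFP, against 9131 and 3635 in SEZ_CD24. Alas2 alone made up 8741 and 3442 of the SEZ_CD24 sums, so they describe that gene rather than the list. The part of red cell RNA in the differences of these genes was not tested.

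The 250 bases before the start of 3 of these genes are shown as examples, because they moved together and because GATA factors drive many red cell genes. The windows of Fech, Bpgm, Slc4a1 and Ube2o, which moved the same way, are not shown, so no share is read from these 3. They are RefSeq windows of GRCm38.p6, read in the direction of the gene, with capitals for the GATA core AGATAA or its reverse complement TTATCT. The windows are chrX:150547167-150547416 (plus strand) for Alas2, chr17:36869324-36869573 (plus strand) for Trim10 and chr3:100489193-100489442 (minus strand) for Tent5c.
Alas2: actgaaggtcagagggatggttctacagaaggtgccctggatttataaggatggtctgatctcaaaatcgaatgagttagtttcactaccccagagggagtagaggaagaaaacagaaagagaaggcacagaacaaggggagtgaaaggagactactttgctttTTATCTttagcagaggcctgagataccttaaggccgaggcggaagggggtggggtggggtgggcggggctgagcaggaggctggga
Trim10: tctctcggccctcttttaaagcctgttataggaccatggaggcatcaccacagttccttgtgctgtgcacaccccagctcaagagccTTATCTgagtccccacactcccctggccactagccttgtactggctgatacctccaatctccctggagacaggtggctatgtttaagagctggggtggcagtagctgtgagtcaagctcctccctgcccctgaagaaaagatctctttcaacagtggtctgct
Tent5c: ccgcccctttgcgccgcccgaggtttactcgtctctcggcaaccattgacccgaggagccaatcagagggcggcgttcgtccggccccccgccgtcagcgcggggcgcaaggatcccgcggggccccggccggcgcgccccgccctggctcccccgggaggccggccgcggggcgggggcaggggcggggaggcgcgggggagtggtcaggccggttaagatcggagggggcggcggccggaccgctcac
Alas2 and Trim10 each held 1 core on the reverse strand, and these letters are not in the Tent5c window. Of all genes tested, 14453 matched a window, with 18110 windows in all. A gene with several starts counts once for each. The core was in 7.4% of all windows, in 14 of 81 windows (17.3%) of genes lower in SEZ_GFP and in 6 of 64 (9.38%) of genes higher in SEZ_GFP. The letters GAGGAAGT or ACTTCCTC, a core bound by the myeloid factor PU.1, were in 2.36% of all windows, in 6 of 81 (7.41%) of genes lower and in 1 of 64 (1.56%) of genes higher in SEZ_GFP. The letters CCACACCC or GGGTGTGG, a core of KLF factors, were in 3.53% of all windows, in 1 of 81 (1.23%) of genes lower and in 4 of 64 (6.25%) of genes higher in SEZ_GFP. The letters GTTGCCAT or ATGGCAAC, a core of RFX factors, were in 1.12% of all windows and in 0 of both sets. None of these motifs overlaps another in the windows shown, and a match is a description of the letters, not a bound site.

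Microglia markers had the lowest median of all the lists. Of 17 microglia markers measured, 6 passed, all lower in SEZ_GFP, and 15 (against 17.9% of all genes) had SEZ_GFP arrays below both SEZ_CD24 arrays. The median difference was -4.13. Csf1r, the receptor on which microglia depend for survival, had 541 and 502 in SEZ_GFP, against 9290 and 6304 in SEZ_CD24 (log2 difference -3.88, SE 0.63, 14.7-fold lower, adjusted p = 0.0181). The protease gene Ctss had 337 and 265 in SEZ_GFP, against 7336 and 3744 in SEZ_CD24 (17.5-fold lower, adjusted p = 0.00496). Cx3cr1, the fractalkine receptor, had 112 and 53 in SEZ_GFP, against 2139 and 1170 in SEZ_CD24 (20.5-fold lower, adjusted p = 0.00897). Csf1r and Cx3cr1 were in the other groups at 910 to 4661 and 89 to 723, above SEZ_GFP for Csf1r and in part above it for Cx3cr1. Tmem119, a surface protein of resident microglia, had 48 and 34 in SEZ_GFP, against 1500 and 575 in SEZ_CD24 (23.0-fold lower, adjusted p = 0.048). Cd53, a tetraspanin of leukocytes, was 21.7-fold lower (adjusted p = 0.0423, and 0.131 as the mean of its probe sets) and Fcrls, a microglial Fc receptor-like protein, 11.1-fold lower (adjusted p = 0.0456). Aif1, the calcium-binding protein IBA1, had 18 and 14 in SEZ_GFP, against 78 and 28 in SEZ_CD24 (adjusted p = 0.43), and did not pass.

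P2ry13, Selplg, Cd83 and Plek were among the 12 largest differences in this direction. The purinergic receptor gene P2ry13 had 55 and 27 in SEZ_GFP, against 1835 and 595 in SEZ_CD24 (27.1-fold lower, adjusted p = 0.0296). Selplg, the ligand of P-selectin, had 82 and 62 in SEZ_GFP, against 3696 and 1334 in SEZ_CD24 (31.1-fold lower, adjusted p = 0.0268). Cd83, a surface protein of activated immune cells, had 23 and 21 in SEZ_GFP, against 2227 and 477 in SEZ_CD24 (46.9-fold lower, adjusted p = 0.0353). Plek, a substrate of protein kinase C in blood cells, had 19 and 21 in SEZ_GFP, against 1397 and 170 in SEZ_CD24 (24.4-fold lower, adjusted p = 0.0324). In these 4 genes SEZ_CD24 replicate 1 was the highest of the compared arrays by a wide margin. Both SEZ_CD24 arrays were above all the others in P2ry13 and Selplg, but not in Cd83 and Plek. SEZ_Prom arrays had 408 to 450 in Cd83 and 152 to 222 in Plek, and DIEC_GFP arrays reached 711 and 223. In Cd83 and Plek the SEZ_GFP arrays were the lowest of all. With a longer list chosen after values were seen, 25 of 55 microglia genes passed, all lower in SEZ_GFP. The summed intensity of the 17 markers was 1596 and 1271 in SEZ_GFP, against 33492 and 15513 in SEZ_CD24, and the part of microglial RNA in the other differences was not tested. Without SEZ_CD24 replicate 1 the difference of Csf1r was -3.60 (adjusted p = 0.084).

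Of 8 granulocyte genes measured, 2 passed, both lower in SEZ_GFP, with a list median of -2.05. Ngp, a protein of neutrophil granules, had 17 and 19 in SEZ_GFP, against 316 and 59 in SEZ_CD24 (7.60-fold lower, adjusted p = 0.0425). Ltf, the lactoferrin gene, had 31 and 28 in SEZ_GFP, against 152 and 99 in SEZ_CD24 (4.16-fold lower, adjusted p = 0.0119). The calprotectin subunit genes S100a8 and S100a9 were at background in SEZ_GFP and did not pass. S100a9 had 10 and 8 in SEZ_GFP, against 372 and 33 in SEZ_CD24 (adjusted p = 0.0548), a value carried by SEZ_CD24 replicate 1. Of 11 lymphocyte genes, 0 passed in limma (4 at an unadjusted p under 0.05), with a median of -0.18.

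Of 11 choroid plexus genes measured, 4 passed, all lower, and all 11 had a difference below 0, with a median of -2.47. Clic6, an intracellular chloride channel protein, had 18 and 9 in SEZ_GFP, against 441 and 263 in SEZ_CD24 (25.4-fold lower with values under 10 set to 10, adjusted p = 0.00496). When probe sets of shared sequence were left out, Clic6 differed by -1.88 (adjusted p = 0.122). Kl, the gene of the hormone klotho, had 8 and 7 in SEZ_GFP, against 74 and 39 in SEZ_CD24 (5.37-fold lower with values under 10 set to 10, adjusted p = 0.0014). The other Kl probe set differed by 0.11. Kcne2, a potassium channel subunit, had 7 and 6 in SEZ_GFP, against 38 and 37 in SEZ_CD24 (3.75-fold lower with values under 10 set to 10, adjusted p = 0.00116). Both Kl and Kcne2 were as high or nearly so in SEZ_Prom, at 72 to 96 and 32 to 37, and at background in SEZ_GFPprom and DIEC_GFP. Sostdc1, a secreted inhibitor of BMP and Wnt signals, had 29 and 12 in SEZ_GFP, against 142 and 75 in SEZ_CD24 (5.53-fold lower, adjusted p = 0.0423). Clic6 was higher in SEZ_Prom than in SEZ_CD24, at 499 to 618, and Sostdc1 had 127 to 191 in SEZ_GFPprom. Ttr, the transthyretin that choroid plexus secretes in bulk, had 9146 and 436 in SEZ_GFP, against 14001 and 8698 in SEZ_CD24 (adjusted p = 0.67). Ttr thus differed by more between the SEZ_GFP arrays than between the groups. The summed intensity of the list was 9497 and 569 in SEZ_GFP, against 15746 and 9637 in SEZ_CD24. Ttr made up most of each of these sums, so they describe that gene rather than the list.

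Interferon-induced genes split. Rsad2, the antiviral enzyme viperin, had 202 and 152 in SEZ_GFP, against 8951 and 2667 in SEZ_CD24 (27.9-fold lower, adjusted p = 0.00335), and its 3 probe sets pointed the same way. Isg20, an exonuclease, had 29 and 27 in SEZ_GFP, against 2913 and 390 in SEZ_CD24 (38.1-fold lower, adjusted p = 0.0178). Yet of 26 genes of the interferon response and antigen presentation, Rsad2 alone passed, and the median was -0.08. Aldh1a1, an enzyme that makes retinoic acid, had 8 and 10 in SEZ_GFP, against 638 and 248 in SEZ_CD24 (39.8-fold lower with values under 10 set to 10, adjusted p = 0.0152). It was high in DIEC_GFP too, at 177 to 1339.

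Immediate early genes, which are induced within minutes by activity or handling of cells, had no member past the test but leaned one way. Of 26 measured, 0 passed in limma (16 at an unadjusted p under 0.05). In 22 (against 17.9% of all genes) SEZ_GFP arrays were below both SEZ_CD24 arrays, and 1 (against 52% of all genes) had a difference above 0. The median was -1.59. Jun, a subunit of the AP-1 factor, had 978 and 830 in SEZ_GFP, against 4529 and 2780 in SEZ_CD24 (adjusted p = 0.155). Atf3, a stress-induced factor, had 260 and 67 in SEZ_GFP, against 3981 and 1009 in SEZ_CD24 (adjusted p = 0.0904). Fos, the partner of Jun in AP-1, had 5544 and 5214 in SEZ_GFP, against 9422 and 8419 in SEZ_CD24 (adjusted p = 0.324). The groups were separate in all 3 genes. The other groups ranged from 481 to 1849 in Jun, below both SEZ_CD24 arrays. They overlapped the SEZ_CD24 arrays in the other 2 genes, with up to 2085 in Atf3 and up to 9812 in Fos.

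**Figure D4:**
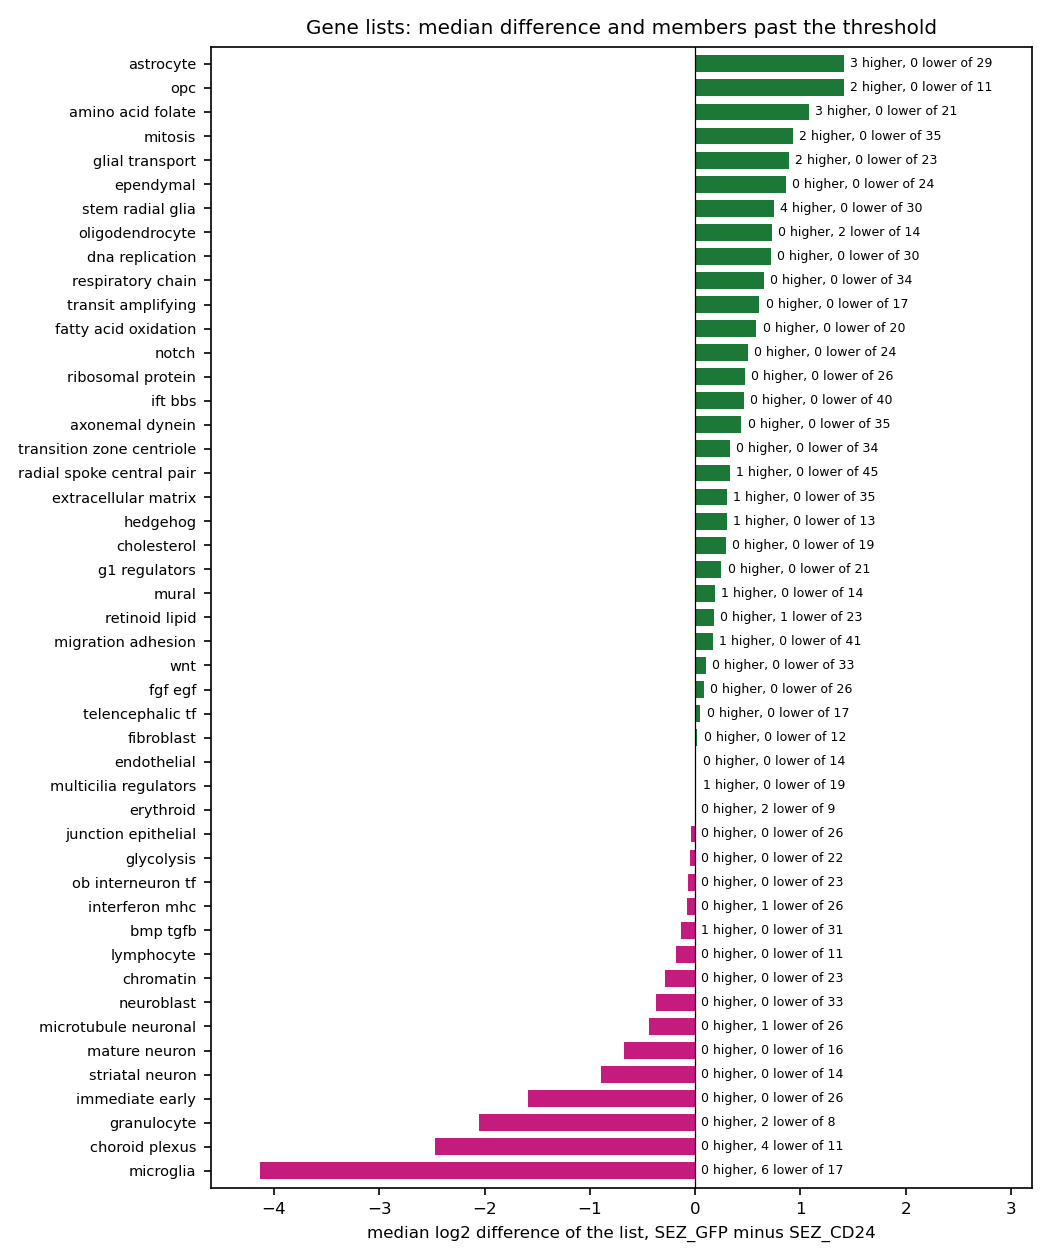
Bars give the median log2 difference, SEZ_GFP minus SEZ_CD24, of each gene list other than the sex list and the 5 lists chosen after values were seen, in order of size, and the text beside each bar gives the members past the threshold out of those measured. Microglia (-4.13), choroid plexus (-2.47) and granulocyte (-2.05) lists lie lowest and astrocyte and oligodendrocyte progenitor (opc, both 1.41) lists highest; over all genes the median was 0.02.

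Signalling and housekeeping lists held few calls. In the Hedgehog list Gas1, a co-receptor, passed alone of 13, with 782 and 856 in SEZ_GFP, against 254 and 247 in SEZ_CD24 (3.27-fold higher, adjusted p = 0.00469). Epha5, an ephrin receptor, passed alone of 41 genes of migration and adhesion (4.56-fold higher, adjusted p = 0.0294, and 0.103 as the mean of its probe sets). None of 24 Notch genes passed in limma (6 at an unadjusted p under 0.05). The Notch target Hes5 had 1983 and 2180 in SEZ_GFP, against 963 and 287 in SEZ_CD24 (adjusted p = 0.0642). None of 33 Wnt genes (6 at an unadjusted p under 0.05) and none of 34 respiratory chain genes (13 at an unadjusted p under 0.05) passed in limma. In all, 12 of the 66 genes higher in SEZ_GFP belonged to the astrocyte, stem cell, progenitor, transport and amino acid lists, which held 102 measured genes. Of the 83 genes lower in SEZ_GFP, 16 belonged to the first microglia, red cell, choroid plexus, granulocyte and oligodendrocyte lists. A further 28 of the 83 were only in the longer lists, which were chosen after these values were seen. The other 54 higher and 39 lower genes were among the 17952 genes in none of these lists. With each of the 14 arrays left out in turn, 11 genes passed every time, namely Alcam, Cspg4, Psat1, Tent5c, Alas2, Slc25a37, Fech, Bpgm, Kl, Kcne2 and Apol11b, an apolipoprotein L gene near background.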

How the data were processed

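RNA of sorted cells was measured on 14 Affymetrix MOE430 2.0 arrays in 5 groups. Per the labels' protocols, a 2-cycle amplification with biotin labelling was used. The deposited values are intensities on a linear scale, made with RMA per the submitters' processing notes and rounded to whole numbers, and no version or annotation is given in the sources used here. Their log2 was taken without a pseudocount. Of 45101 probe sets, 34945 had 1 gene symbol, and the brightest probe set stood for each of 18193 genes. On each array 25.4% to 25.7% of probe sets lay at 10 or less, where rounding is coarse, so folds of such genes are given with values under 10 set to 10. Precision is limited by the number of arrays; arrays have no depth.

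The test was limma 3.58.1 under R 4.3.3 (lmFit, contrasts.fit, eBayes). It fitted a mean for each of 5 groups to 14 arrays, without covariates (degrees of freedom: 9 residual, 2.627 prior), two-sided, with Benjamini-Hochberg adjustment and a threshold of 0.05. The fit was tested on simulated data. The members and the 48 gene lists were chosen with earlier results of these data known, and another 5 lists after these values were seen. Named genes are the 12 highest and 12 lowest differences among non-overlapping calls, the genes of the sorting proteins, up to 4 called members per list and direction, and the defining members, of which a part is printed. Psph, Tmem119, Fcrls, Bpgm, Trim10, Ube2o, Klf1, Atf3, Eif2s3y, Apol11b and the genes under other observations were chosen after their values were seen. Alternatives were other normalizations, filters, probe set rules and fits, and leaving out each array. Some list members were not analysed here.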

Additional observations from a re-analysis of the deposited data

Results flagged for a closer look

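In 4 of the genes described here, a single array of another group was set apart by a gap that took up most of its group's range (log2 intensities). The other groups estimate the spread. Such a gap can be small in itself, as for Alcam and Kl. By chance about 5% of groups would stand out this way, and as the number of groups looked at is not given here, the 4 cannot be set against that share. Alcam was 9.18 on DIEC_GFP replicate 3, the lowest of a group that reached 9.49. Kl was 2.58 on SEZ_GFPprom replicate 2, against 2.81 on the other arrays of that group, a gap of 1 rounding step near background. Mki67 was 7.24 on DIEC_GFP replicate 4, the highest of a group that began at 4.46. Xist was 6.98 on SEZ_GFPprom replicate 2, the lowest of a group that reached 11.39.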

How the results depend on the processing

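There were 26 alternatives. The 149 calls (66 higher, 83 lower) became 80 (38 and 42) with values under 10 set to 10, 76 (31 and 45) without probe sets of shared sequence, 224 (115 higher) in a fit without DIEC_GFP, 314 (152 and 162) with array weights, 35 (15 and 20) with the 3' to 5' ratio as a covariate, and 0 in limma with the compared groups alone (2388 at an unadjusted p under 0.05). Without the dimmest 50% of genes 102 were higher. Leaving out 1 array gave 16 to 356 calls, 4 to 104 higher and 8 to 252 lower. With fewer residual degrees of freedom or fewer genes the threshold moves, and other causes were not tested. The same replicate numbers stand in both groups, but nothing ties them to shared animals. Across genes, the deviations of replicate 1 from the group mean correlated at 0.129 between the 2 groups. With 2 arrays per group, replicate 2 mirrors replicate 1 and adds no second estimate. With the number as a replicate block 122 genes passed (53 and 69), 88 of them among the 149.

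Differences turned sign with the 3' to 5' ratio as a covariate for Mog (-0.97), Dcx (0.16), Tubb3 (0.39), Mki67 (-0.12), Foxj1 (-0.22) and the oligodendrocyte median (-0.42). With 1 array left out they spanned -0.90 to 2.39 for Mog, -0.73 to 0.24 for Dcx, -1.34 to 0.64 for Tubb3, -0.16 to 0.01 for Sox11, -0.07 to 0.39 for Foxj1 and -0.36 to 1.70 for the oligodendrocyte median, with the turned end of each without SEZ_CD24 replicate 2. Mog was also -0.32 without SEZ_GFP replicate 1. Prom1 spanned -0.39, without SEZ_CD24 replicate 1, to 1.77. Polr3k was -0.29 without probe sets of shared sequence. No other named gene changed sign, nor did another list median of at least 0.5 in size, and the causes were not tested. Dim signal limits genes near background, such as Kl and Kcne2.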

Other observations

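The further genes given here were named after their values were seen and stand for no group. Ppargc1a, a coactivator of mitochondrial biogenesis, had 256 and 351 in SEZ_GFP, against 75 and 36 in SEZ_CD24 (5.77-fold higher, adjusted p = 0.04 in limma), with 3 of its 5 probe sets pointing the same way and an adjusted p of 0.14 as their mean. Klf15, a glucocorticoid-responsive transcription factor, had 178 and 129 in SEZ_GFP, against 43 and 28 in SEZ_CD24 (4.37-fold higher, adjusted p = 0.0483). Ptprz1, a receptor phosphatase of glia and progenitors, had 1575 and 1618 in SEZ_GFP, against 485 and 462 in SEZ_CD24 (3.37-fold higher, adjusted p = 0.0161). Megf10, an engulfment receptor of astrocytes, was 3.18-fold higher (adjusted p = 0.0423). Among enzymes, Acot1, an acyl-CoA thioesterase, and Gyg, the primer of glycogen synthesis, were 3.71-fold and 3.79-fold higher (adjusted p = 0.00317 and 0.00469). The proteasome subunit genes Psmb3 and Psmb2 were 4.92-fold and 2.47-fold higher (adjusted p = 0.034 and 0.0476), as 2 of 29 proteasome genes measured. Psmb3 did not pass when probe sets of shared sequence were left out (1.39, adjusted p = 0.153).

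Lower in SEZ_GFP was Sgk1, a kinase induced by glucocorticoids and salt, with 115 and 205, against 5842 and 1790 in SEZ_CD24 (21.1-fold, adjusted p = 0.0137). The other groups had 849 to 3416 in Sgk1, above both SEZ_GFP arrays and overlapping the SEZ_CD24 arrays. Txnip, a glucose-induced inhibitor of thioredoxin, had 233 and 238 in SEZ_GFP, against 884 and 1387 in SEZ_CD24 (4.70-fold lower, adjusted p = 0.0462). The carbonic anhydrase Car12 had 27 and 17 in SEZ_GFP, against 307 and 179 in SEZ_CD24 (10.9-fold, adjusted p = 0.0231). The receptor gene Il6ra had 12 and 14 in SEZ_GFP, against 97 and 112 in SEZ_CD24 (8.04-fold, adjusted p = 0.0392), and 1 of its 2 probe sets pointed this way. Other groups overlapped SEZ_CD24 in these 2 genes, with 280 to 299 in SEZ_Prom for Car12 and 61 to 155 in SEZ_GFPprom for Il6ra.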
